A study of Mus musculus with 12 samples.

Results

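The CCN genes encode secreted matricellular proteins, which sit in the extracellular matrix and signal from there rather than building it. Mouse Ccn1, Ccn2, Ccn3, Ccn4 and Ccn5 were followed in mesenchymal stem/stromal cells (MSCs) in the presence or absence of p38α, the stress-activated kinase encoded by Mapk14. The genes were taken by symbol from the platform annotation, under the older names Cyr61, Ctgf, Nov, Wisp1 and Wisp2. A probeset was kept where it was annotated to exactly 1 of these genes, which gave 8 probesets for 5 genes, of 45037 probesets and 17097 named genes in all. Ccn1, Ccn3 and Ccn4 had 2 probesets each, and Ccn2 and Ccn5 had 1 each. The family was chosen by its measured values in p38α∆ against WT MSCs under TGF-β, so those differences are described below without a test. The tested TGF-β responses use the same treated arrays, so their calls are not independent of that choice.

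All cells derived from the bone marrow of Mapk14 lox/lox mice with an inducible Cre and were immortalized. The labels give the strain as FVB/NJ, while the methods name C57BL/6J for the experimental mice. They carried floxed Mapk14 alleles and a tamoxifen-inducible Cre recombinase, the cells labelled wildtype included. In p38α∆ MSCs (labelled ko) the gene was deleted by 4-hydroxytamoxifen, and in WT MSCs, which received vehicle, it was left in place. Each genotype comparison therefore also sets 4-hydroxytamoxifen and Cre activation against vehicle, and these cannot be told apart. Expression was measured on 12 Affymetrix arrays, of TGF-β-treated p38α∆ MSCs (n = 3), untreated p38α∆ MSCs (n = 2), TGF-β-treated WT MSCs (n = 3) and untreated WT MSCs (n = 4). Cells were starved in 0.5% serum, and treated cells received 5 ng/ml TGF-β for 20 h. The labels number the arrays, with numbers 1, 2 and 4 in treated p38α∆ cells, 1 and 3 in untreated p38α∆ cells, 1, 3 and 4 in treated WT cells, and 1, 3, 4 and 4b in untreated WT cells. Values of a group are given in this order of numbers. The labels do not say whether arrays of a group came from separate cultures, so p-values measure only the spread between these arrays, and the number of arrays limits their precision.

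CCN proteins are built from modules related to insulin-like growth factor binding proteins, von Willebrand factor, thrombospondin and cystine-knot growth factors, and they act through integrins, syndecans and LRP receptors. CCN1 and CCN2 are known targets of TGF-β, of the Hippo effectors YAP and TAZ acting through TEAD factors, and of the actin-regulated factor SRF, and CCN2 is a widely used marker of fibrotic responses. CCN4 and CCN5 were first described as Wnt-inducible proteins. CCN5 lacks the C-terminal cystine-knot module that the other members carry, and CCN3 and CCN5 oppose CCN2 in several fibrosis models.

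Values are log2 intensities, so that a difference of 1 is a doubling. They were fitted in limma across all probesets with arrays of the same number treated as related, and fitted differences therefore depart slightly from plain differences of group means. A probeset passed where its p, adjusted by the Benjamini-Hochberg method over all probesets, was under 0.05. Over the 12 arrays values ran from 2.28 to 12.9, and the median probeset averaged 4.25. The arrays numbered 1 stood apart from the rest: the first principal component (50.6% of variance) put these 4 arrays between -64.2 and -41.0 and the other 8 between 6.61 and 48.9. The next component (23.9%) separated TGF-β-treated arrays (-31.1 to -22.2) from untreated arrays (21.6 to 32.8). None of 6 Mapk14 probesets passed between p38α∆ and WT MSCs, with or without TGF-β, with differences between -0.18 and 0.19 and a lowest adjusted p of 0.601. Which exons these probesets cover was not known here, so they do not check the genotype labels.

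The MSC label was set against marker genes. Of 7 MSC markers 6 were measured, and 5 of these were above the median probeset, while Thy1 lay between 3.14 and 3.55. The mean of the MSC markers was 7.65 to 7.70 in TGF-β-treated and 7.34 to 7.44 in untreated p38α∆ MSCs, and 7.60 to 7.66 in TGF-β-treated and 7.31 to 7.40 in untreated WT MSCs. None of 6 endothelial markers was above the median probeset, with a list mean of 3.50 to 3.85 over all arrays. Of 6 hematopoietic markers 2 were above the median probeset, Cd79a (5.01 to 5.92) and Cd68 (4.25 to 4.69), and the pan-leukocyte gene Ptprc lay between 2.67 and 2.97. The hematopoietic list mean was 3.59 to 3.86 in TGF-β-treated and 3.63 to 3.70 in untreated p38α∆ MSCs, and 3.57 to 3.74 in TGF-β-treated and 3.64 to 3.77 in untreated WT MSCs. The mean of 3 measured chondrocyte markers was 6.17 to 6.22 in TGF-β-treated and 5.84 to 6.0 in untreated p38α∆ MSCs, and 6.01 to 6.42 in TGF-β-treated and 5.68 to 6.07 in untreated WT MSCs. The mean of 3 measured osteoblast markers was 7.82 to 7.91 in TGF-β-treated and 8.15 to 8.36 in untreated p38α∆ MSCs, and 7.57 to 7.97 in TGF-β-treated and 7.90 to 8.12 in untreated WT MSCs. The list mean of the MSC markers thus differed between treated and untreated arrays without overlap in both genotypes. The list means of the chondrocyte and osteoblast markers did so in p38α∆ MSCs. In p38α∆ MSCs the mean of 3 measured smooth muscle markers was 8.29 to 8.59 with TGF-β and 8.24 to 8.51 without. In WT MSCs it was 8.05 to 8.49 with TGF-β and 8.22 to 8.54 without. In every group this mean lay above that of the MSC markers, so the lists do not tell MSCs from smooth muscle cells. Acta2 (11.8 to 12.2) and Cnn1 (8.89 to 9.83) were above the median probeset. Of 3 measured adipocyte markers Pparg (5.29 to 6.05) alone was above the median probeset. Single markers need not follow their list mean. The part of these lists in the results below was not tested. In such bulk RNA, fewer cells that express a gene and less RNA per cell cannot be told apart.

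TGF-β moved the CCN genes in opposite directions. In p38α∆ MSCs 7 of 8 probesets passed, 5 higher and 2 lower in treated cells, where 5.21% of all probesets passed, 2.43% higher and 2.78% lower. In WT MSCs 5 of 8 probesets passed, 3 higher and 2 lower, where 6.0% of all probesets passed, 2.94% higher and 3.06% lower. With probesets dimmer than the median probeset left out, 7 of 7 remaining CCN probesets passed in p38α∆ MSCs, where 2744 of 22518 probesets passed. In WT MSCs 5 of 7 then passed, where 3229 of 22518 did. All these counts draw on the treated arrays by which the family was chosen, so they are not independent of that choice. Ccn2 and Ccn4 were higher and Ccn5 was lower with TGF-β in both genotypes, Ccn1 was higher in p38α∆ MSCs, and the calls for Ccn3 depended on the probeset. Treated and untreated arrays did not overlap for 7 of 8 probesets in p38α∆ MSCs, 5 higher and 2 lower, where 20.0% of all probesets did not overlap (9.35% higher and 10.7% lower). In WT MSCs this held for 6 of 8, 3 higher and 3 lower, where 11.0% of all probesets did not overlap (4.94% higher and 6.06% lower). Both responses are set side by side in the plot of TGF-β responses. No probeset of the family passed between untreated p38α∆ and untreated WT MSCs, and 0.00% of all probesets did.

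**Figure D1:**
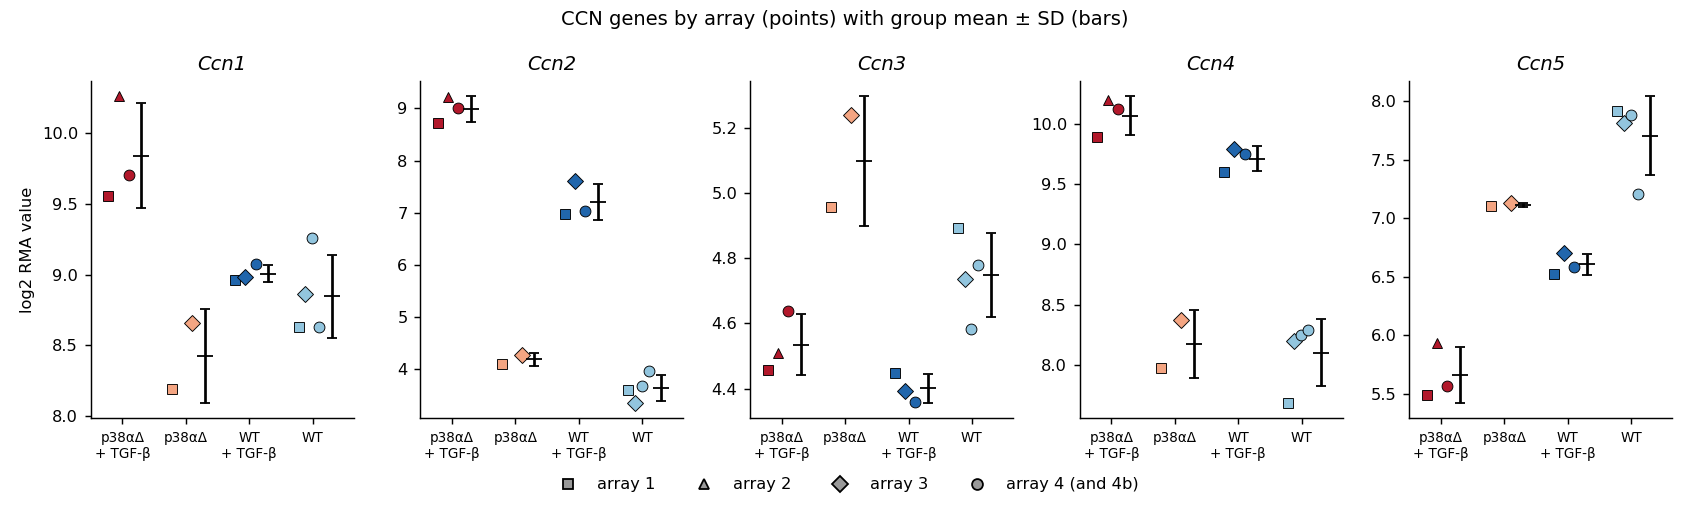
Log2 intensity of the brightest probeset of each CCN gene on every array (points, with the array number given by the symbol) in the 4 groups, with bars for the group mean ± SD. Ccn2 and Ccn4 are high and Ccn5 is low in the TGF-β-treated groups, and the Ccn1 arrays of TGF-β-treated p38α∆ MSCs, from 9.56 upwards, lie above all others.

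Ccn1 encodes CYR61, an immediate-early, integrin-binding protein that promotes angiogenesis and adhesion. Its RefSeq promoter sequence is shown because Ccn1 is a textbook TEAD target and other TEAD targets are read below. The 250 bases before the start site (chr3:145649986-145650235, minus strand, GRCm38.p6) read 5′ to 3′ as below, with capitals marking matches to the motifs searched.
Ccn1: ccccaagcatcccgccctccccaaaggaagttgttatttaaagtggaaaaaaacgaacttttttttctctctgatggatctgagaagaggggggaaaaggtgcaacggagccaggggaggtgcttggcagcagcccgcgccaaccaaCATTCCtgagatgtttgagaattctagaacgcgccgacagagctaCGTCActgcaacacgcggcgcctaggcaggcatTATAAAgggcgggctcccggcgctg
Both strands were searched for 6 motifs. The TEAD motif GGAATG matched as CATTCC from base -103 and is found in 12.6% of promoters of the same length. The CRE half-site TGACG matched as CGTCA from base -58 (17.8% of promoters), and the TATA box TATAAA from base -25 (12.4%). These letters overlap no other motif searched. The Smad motif CAGAC (42.2%), the AP-1 motif TGANTCA (6.75%) and the CArG box bound by SRF (1.47%) had no match in this window. A match is a description of the letters only. For Ccn2, Ccn3, Ccn4 and Ccn5 no promoter is shown.

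On the probeset that stands for Ccn1 (1416039_PM_x_at, the brighter of the pair), TGF-β-treated p38α∆ MSCs had 9.56, 10.26 and 9.70, against 8.19 and 8.66 in untreated p38α∆ MSCs. All treated arrays were above both untreated ones. The fitted difference was 1.33 ± 0.20 (SE), 2.51-fold (95% interval 0.88 to 1.78, adjusted p = 0.00284). In WT MSCs the values were 8.96, 8.98 and 9.08 with TGF-β and 8.63, 8.86, 9.26 and 8.63 without, so that the treated arrays lay within the untreated range. There the difference was 0.18 ± 0.16 and did not pass (interval -0.17 to 0.52, adjusted p = 0.658). The second probeset (1438133_PM_a_at) had a difference of 1.31 ± 0.20 in p38α∆ MSCs (adjusted p = 0.00262) and of 0.20 ± 0.15 in WT MSCs (adjusted p = 0.597). On every array the pair lay within -0.07 to 0.14 of each other.

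Without the untreated p38α∆ array numbered 1, the lower of the pair of controls, the Ccn1 differences in p38α∆ MSCs were 1.14 and 1.09 and did not pass (adjusted p = 0.0630 and 0.0611). That fit leaves 1 untreated p38α∆ array, which is assumed to vary like the other groups. With all 4 arrays numbered 1 left out, the differences were 1.31 and 1.19 and passed (adjusted p = 0.0439 and 0.0362). Between the arrays numbered 1 alone, treated minus untreated p38α∆ MSCs, the differences were 1.37 and 1.41. Within numbers 1, 3 and 4 the WT response of the first probeset was 0.33, 0.12 and 0.13.

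Ccn2 encodes connective tissue growth factor, which drives matrix production. It had the widest range of the family. TGF-β-treated p38α∆ MSCs had 8.72, 9.22 and 9.01, against 4.10 and 4.28 in untreated p38α∆ MSCs. TGF-β-treated WT MSCs had 6.97, 7.61 and 7.04, against 3.60, 3.35, 3.68 and 3.96 in untreated WT MSCs. The 4 groups did not overlap at all. The untreated values, all but the 4.28 of 1 p38α∆ array, were below the median probeset (4.25), and whether they were above background was not known from these values. The folds that follow are therefore relative to a baseline that may be the array's floor. The treated minus untreated difference was 4.73 ± 0.21 in p38α∆ MSCs, 26.6-fold (interval 4.27 to 5.19, adjusted p = 9.46e-07), and 3.57 ± 0.16 in WT MSCs, 11.9-fold (interval 3.22 to 3.92, adjusted p = 5.09e-07). Within numbers, the response was 4.62 for number 1 in p38α∆ MSCs and 3.37, 4.26 and 3.22 for numbers 1, 3 and 4 in WT MSCs.

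Ccn4 encodes WISP1, which promotes osteoblast and fibroblast proliferation and is known in bone and in fibrosis. On its brighter probeset (1448593_PM_at) TGF-β-treated p38α∆ MSCs had 9.89, 10.19 and 10.12, against 7.98 and 8.37 in untreated p38α∆ MSCs. In WT MSCs the values were 9.60, 9.79 and 9.75 with TGF-β and 7.68, 8.19, 8.24 and 8.29 without it. Every treated array was above every untreated one, whatever its genotype. The differences were 1.86 ± 0.13 in p38α∆ MSCs, 3.62-fold (interval 1.57 to 2.14, adjusted p = 1.25e-05), and 1.63 ± 0.10 in WT MSCs, 3.10-fold (interval 1.41 to 1.85, adjusted p = 3.56e-06).

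The other Ccn4 probeset (1448594_PM_at) had 9.01, 9.52 and 9.50 in TGF-β-treated p38α∆ MSCs and 6.55 and 7.53 in untreated p38α∆ MSCs. In WT MSCs it had 8.74, 9.10 and 8.94 with TGF-β and 6.28, 7.43, 7.31 and 7.35 without it. Both untreated arrays numbered 1 were low on this probeset, at 6.55 and 6.28, where the other untreated arrays lay at 7.31 or above. Its differences were 2.30 ± 0.24 in p38α∆ (adjusted p = 2.16e-04) and 1.87 ± 0.18 in WT MSCs (adjusted p = 1.17e-04). Within numbers 1, 3 and 4 the WT response of the brighter probeset was 1.91, 1.59 and 1.48, and for number 1 in p38α∆ MSCs it was 1.91.

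Ccn5 encodes WISP2, which is abundant in stromal cells and restrains proliferation and fibrosis. It ran the other way. TGF-β-treated p38α∆ MSCs had 5.49, 5.94 and 5.56, against 7.10 and 7.13 in untreated p38α∆ MSCs. TGF-β-treated WT MSCs had 6.53, 6.71 and 6.59, against 7.91, 7.81, 7.88 and 7.21 in untreated WT MSCs. All treated arrays were below all untreated ones, and the TGF-β-treated p38α∆ arrays were the lowest of the 12. The treated minus untreated difference was -1.44 ± 0.19 in p38α∆ MSCs, 2.72-fold lower (interval -1.87 to -1.02, adjusted p = 0.00115), and -1.12 ± 0.15 in WT MSCs, 2.17-fold lower (interval -1.44 to -0.79, adjusted p = 8.60e-04). Within numbers, it was -1.62 for number 1 in p38α∆ MSCs and -1.39, -1.11 and -0.96 for numbers 1, 3 and 4 in WT MSCs.

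Ccn3 encodes NOV, which binds integrins and NOTCH1 and is known to restrain CCN2. Both of its probesets were near the median probeset, and they differed in p38α∆ MSCs. On the brighter one (1426852_PM_x_at) TGF-β-treated p38α∆ MSCs had 4.46, 4.51 and 4.64, against 4.96 and 5.24 in untreated p38α∆ MSCs, and treated WT MSCs had 4.45, 4.39 and 4.36, against 4.89, 4.74, 4.58 and 4.78 in untreated WT MSCs. Treated arrays were below untreated ones in both genotypes. The differences were -0.54 ± 0.11 in p38α∆ MSCs, 1.45-fold lower (adjusted p = 0.0191), and -0.35 ± 0.09 in WT MSCs, 1.28-fold lower (adjusted p = 0.0373).

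The dimmer Ccn3 probeset (1426851_PM_a_at, mean 3.92 over the 12 arrays) did not pass in either genotype. It had 3.77, 4.13 and 3.95 in TGF-β-treated and 3.88 and 4.16 in untreated p38α∆ MSCs, which overlapped, with a difference of -0.03 ± 0.18 (interval -0.43 to 0.38, adjusted p = 0.970). In WT MSCs it had 3.68, 3.66 and 3.51 with TGF-β and 4.52, 4.11, 3.74 and 3.97 without, which did not overlap, with a difference of -0.50 ± 0.14 (interval -0.81 to -0.18, adjusted p = 0.0688). The Ccn3 calls of the brighter probeset were the least stable of the family. The WT call was lost in 11 of 20 other settings and the p38α∆ call in 3 of 20, among them the fit with array number as fixed terms (adjusted p = 0.0737 in WT and 0.0761 in p38α∆ MSCs) and leaving out single arrays. In WT MSCs it was lost without any 1 of the 3 treated arrays (adjusted p of 0.0822, 0.144 and 0.157), without untreated WT array 1, 3 or 4b (0.111, 0.0814 and 0.0884) and without treated p38α∆ array 2 (0.0563). In p38α∆ MSCs it was lost without treated array 1 (0.112) and without untreated array 3 (0.162). The plot of probeset pairs shows how far the Ccn3 pair departs from the Ccn1 and Ccn4 pairs: its difference ran from -1.08 to -0.37 over the 12 arrays.

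**Figure D2:**
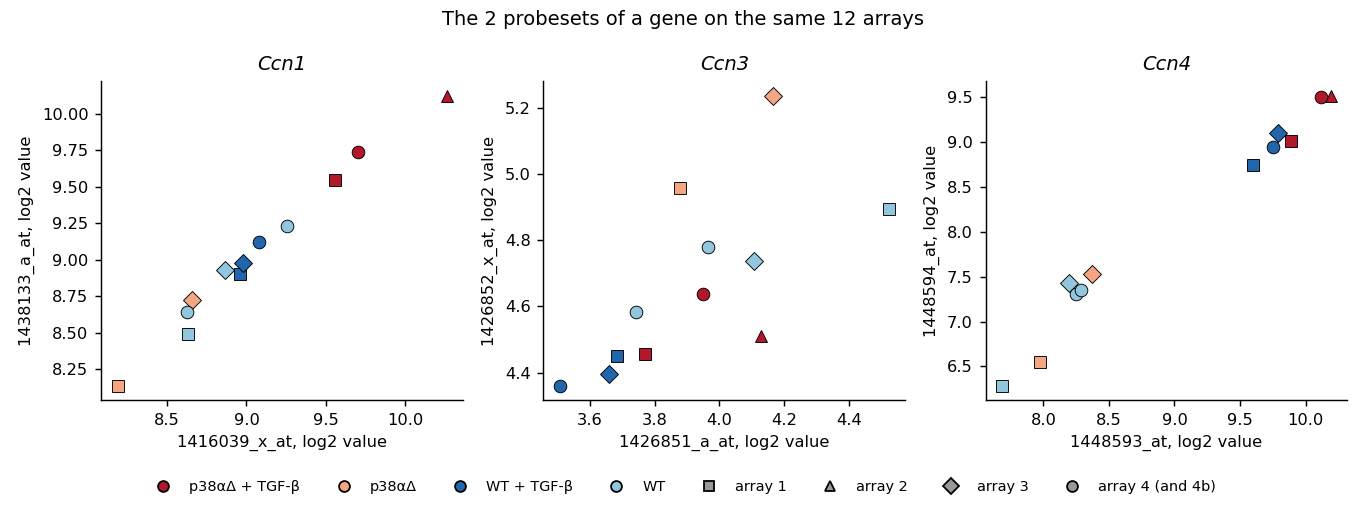
Log2 intensity of the 2 probesets of Ccn1, Ccn3 and Ccn4 plotted against each other, 1 point per array, with groups by colour. The Ccn1 and Ccn4 pairs follow one line (Pearson r of 0.992 and 0.988 over 12 arrays), while the Ccn3 pair scatters (0.670).

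**Figure D3:**
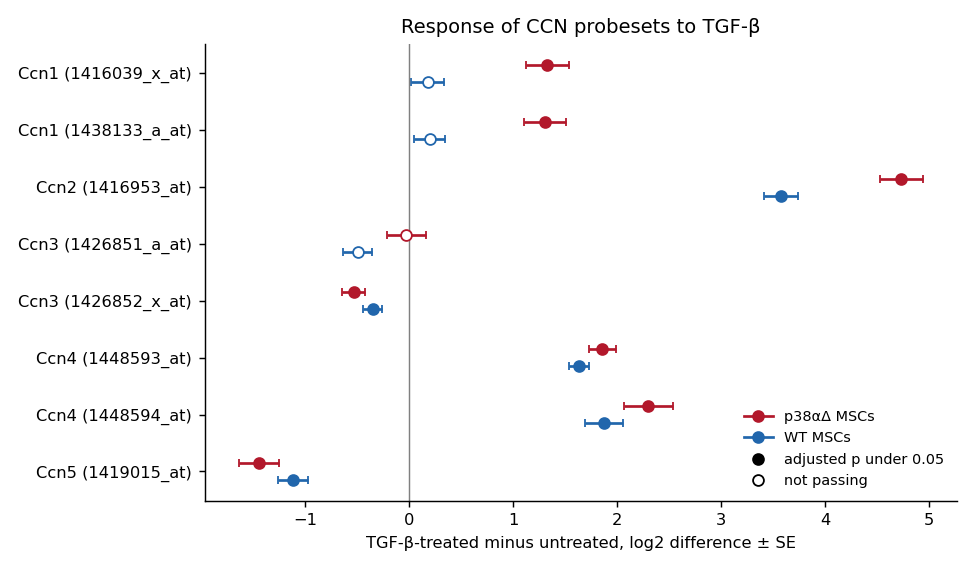
Fitted log2 difference, TGF-β-treated minus untreated, for the 8 CCN probesets in p38α∆ and WT MSCs, with bars of 1 SE and filled points where the adjusted p was under 0.05. Ccn2 (4.73 and 3.57) lies furthest to the right and Ccn5 (-1.44 and -1.12) furthest to the left, and Ccn1 is filled in p38α∆ MSCs and open in WT MSCs.

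Without TGF-β, no CCN probeset passed between p38α∆ and WT MSCs. The arrays of both untreated groups did not overlap for 3 of 8 probesets, 2 higher and 1 lower in p38α∆ MSCs, where 7.01% of all probesets did not overlap (3.69% higher and 3.33% lower). Ccn2 was at 4.10 and 4.28 in p38α∆ MSCs and at 3.35 to 3.96 in WT MSCs, a difference of 0.58 ± 0.19 (interval 0.17 to 1.00, unadjusted p = 0.0104, adjusted p = 0.987). Ccn5 was at 7.10 and 7.13 in p38α∆ MSCs and at 7.21 to 7.91 in WT MSCs, a difference of -0.65 ± 0.18 (interval -1.03 to -0.26, unadjusted p = 0.00343, adjusted p = 0.987). The brighter Ccn3 probeset was the third, with a difference of 0.33 ± 0.10 (unadjusted p = 0.00816, adjusted p = 0.987). These 3 of 8 probesets had an unadjusted p under 0.05, as did 2049 of all probesets (4.55%).

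The arrays of the other probesets overlapped. Ccn1 differed by -0.38 ± 0.19 between untreated p38α∆ and untreated WT MSCs (interval -0.79 to 0.03, adjusted p = 0.987), and the brighter Ccn4 probeset by 0.14 ± 0.12 (interval -0.12 to 0.40, adjusted p = 0.987). Within array numbers 1 and 3, the p38α∆ minus WT difference was 0.50 and 0.93 for Ccn2, -0.81 and -0.69 for Ccn5, -0.44 and -0.21 for Ccn1, and 0.29 and 0.18 for Ccn4. Leaving out 1 array moved several of these differences by over 1.5 times. Ccn1 was at -0.20 without p38α∆ array 1, Ccn2 at 0.36 without WT array 3 and the brighter Ccn3 probeset at 0.18 without p38α∆ array 3. The brighter Ccn4 probeset was at 0.019 without WT array 1, 0.054 without p38α∆ array 3 and 0.23 without p38α∆ array 1. With 2 untreated p38α∆ arrays, intervals of this width leave room for differences of the sizes just given.

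The values under TGF-β served to choose the family, and the genotype differences there are a description. The p38α∆ minus WT difference between treated cells was 1.74 ± 0.18 for Ccn2, 0.77 ± 0.18 and 0.77 ± 0.17 for the probesets of Ccn1, 0.37 ± 0.11 and 0.47 ± 0.21 for those of Ccn4, 0.15 ± 0.10 and 0.32 ± 0.16 for those of Ccn3, and -0.97 ± 0.17 for Ccn5. The arrays of both groups did not overlap for 7 of 8 probesets, 6 higher and 1 lower in p38α∆ MSCs, where 7.77% of all probesets did not overlap (4.41% higher and 3.36% lower). The dimmer Ccn4 probeset, with 9.01 in one TGF-β-treated p38α∆ array and 9.10 in one TGF-β-treated WT array, was the exception. Within numbers 1 and 4 the difference was 1.75 and 1.97 for Ccn2, 0.60 and 0.63 for Ccn1, 0.29 and 0.37 for the brighter Ccn4 probeset and -1.04 and -1.02 for Ccn5.

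The response itself, p38α∆ minus WT, differed by 1.16 ± 0.27 for Ccn2, whose untreated values may lie at the floor, and by 1.15 ± 0.26 and 1.11 ± 0.25 for the Ccn1 probesets. It differed by 0.23 ± 0.17 and 0.43 ± 0.31 for the Ccn4 probesets and by -0.33 ± 0.25 for Ccn5. For Ccn3 the probesets went opposite ways, with -0.18 ± 0.15 on the brighter and 0.47 ± 0.24 on the dimmer one. The TGF-β-treated p38α∆ arrays were above every other array for 4 of 8 probesets (1.20% of all probesets), those of Ccn1, of Ccn2 and the brighter one of Ccn4. They were below every other array for Ccn5 (0.921% of all probesets). The plot of genotype differences sets both states beside each other.

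**Figure D4:**
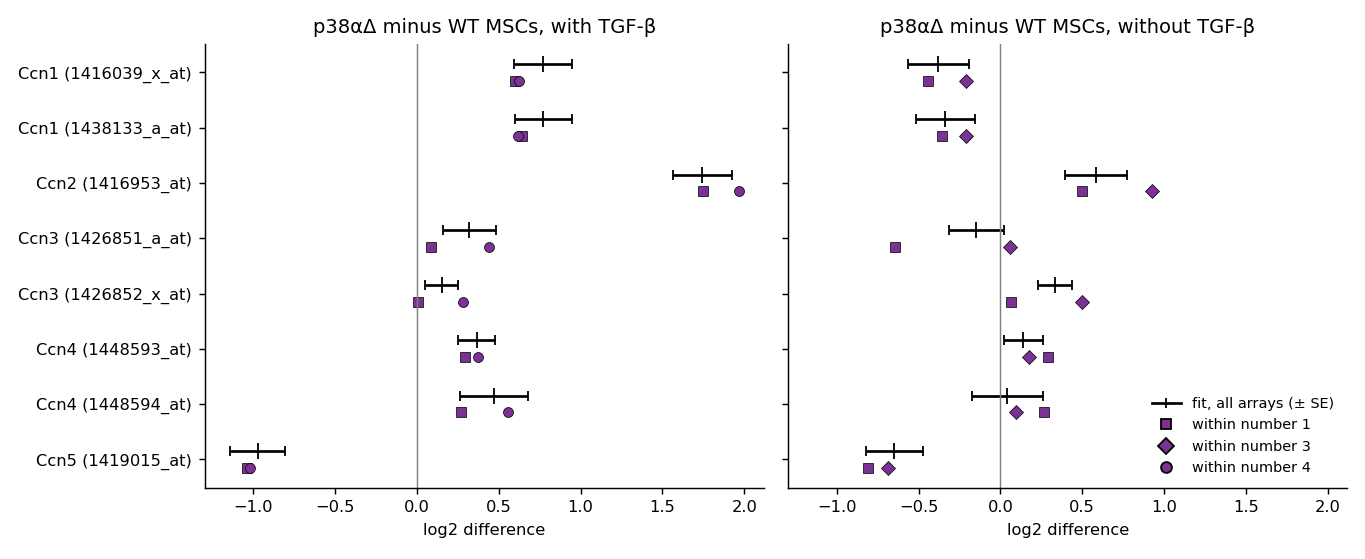
Fitted log2 difference, p38α∆ minus WT MSCs, for the 8 CCN probesets with TGF-β (left) and without (right), with bars of 1 SE and, below each, the differences within single array numbers. For Ccn1 and Ccn2 the TGF-β-treated difference (0.77 and 1.74) lies above the untreated one (-0.38 and 0.58). For Ccn5 both lie below 0 (-0.97 and -0.65).

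The genes most like each member over the 12 arrays were sought among 17092 others, with 1 probeset per gene. Since all arrays share the treated against untreated split and the array numbers, these correlations are a description. Ccn2 ran closest to Fkbp5, an FK506-binding co-chaperone (r = 0.991), Spata13 (0.988) and Pdzrn3 (0.987). Ccn4 ran closest to Slc20a1, a phosphate transporter (0.994), Spata13 (0.987) and Foxq1, a forkhead factor (0.987). Ccn1 ran closest to Stat3, a cytokine-activated transcription factor (0.967), Shb, a signalling adaptor (0.922) and Zwint, a kinetochore protein (0.917). For Ccn5 these were Tmem86a (0.977), Rtl3 (0.969) and Mocs1, of molybdenum cofactor synthesis (0.957), and for Ccn3 Abca8b (0.937), Trim34a (0.922) and Igsf10 (0.919). Abca8b had group means of 2.82 to 3.07, under the lower quartile of probesets (3.36), and may lie at the array's floor. Over the 8 arrays not numbered 1 the values for these genes lay between 0.900 (Shb with Ccn1) and 0.999 (Slc20a1 with Ccn4).

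Genes linked to the family were read from lists of regulators, receptors and partners, each gene by its brightest probeset. Of all probesets, 5.21% passed with TGF-β in p38α∆ MSCs and 6.0% in WT MSCs. The lists take the brightest probeset of each gene, and brighter probesets passed more often. With probesets dimmer than the median probeset left out, 2744 of 22518 passed in p38α∆ MSCs and 3229 of 22518 in WT MSCs. Lists in which 1 gene passed lie near these shares and are not a result about the list. Of 16 TGF-β and Smad targets 13 were measured. Of these, 7 were higher and none lower with TGF-β in p38α∆ MSCs, and 5 were higher and none lower in WT MSCs, with median differences of 0.50 and 0.32, against -0.01 and 0.00 over all probesets. Skil, a Smad co-repressor, differed by 2.56 in p38α∆ and 2.53 in WT MSCs (adjusted p = 0.00125 and 1.76e-04). Ldlrad4, a brake on TGF-β signalling, differed by 2.24 and 1.78 (adjusted p = 1.97e-04 and 1.23e-04). Smad7, the inhibitory Smad, differed by 1.68 and 1.22 (adjusted p = 1.60e-05 and 1.97e-05), and Tgfbi, a matrix protein, by 1.49 and 1.36 (adjusted p = 6.68e-05 and 1.55e-05).

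Of 20 YAP and TEAD targets other than the CCN genes 18 were measured, and 4 were higher and 2 lower with TGF-β in p38α∆ MSCs, and 5 higher and 1 lower in WT MSCs (medians 0.09 and -0.02). Gadd45b, a stress-inducible gene, differed by 1.84 in p38α∆ and 1.53 in WT MSCs (adjusted p = 1.32e-04 and 6.30e-05), and Dock5, an exchange factor for Rac, by 1.43 and 1.35 (adjusted p = 5.06e-05 and 8.64e-06). Foxf2, a forkhead factor, differed by 1.12 and 0.88 (adjusted p = 9.23e-05 and 6.41e-05). F3, tissue factor, differed by -1.78 in p38α∆ MSCs (adjusted p = 0.0118) and by -0.52 in WT MSCs (adjusted p = 0.376). Ajuba, a LIM protein of the Hippo pathway, differed by 0.67 in p38α∆ MSCs (adjusted p = 0.0430) and by 0.92 in WT MSCs (adjusted p = 0.00126). Of 12 genes of the YAP and TEAD pathway itself, Tead2 was lower in both genotypes (-0.48, adjusted p = 0.0113, and -0.50, adjusted p = 0.00150). Wwtr1, which encodes TAZ, passed in WT MSCs (0.89, adjusted p = 0.00266) and not in p38α∆ MSCs (0.60, adjusted p = 0.0902). Amot likewise passed in WT MSCs (-0.46, adjusted p = 0.0371) and not in p38α∆ MSCs (-0.44, adjusted p = 0.142).

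Of 15 SRF and MRTF targets 14 were measured. Srf itself was higher in both genotypes (0.71, adjusted p = 0.00418 in p38α∆, and 0.64, adjusted p = 0.00128 in WT MSCs). The immediate-early genes Fos (1.39, adjusted p = 0.00389) and Egr1 (1.07, adjusted p = 0.00715) were higher in p38α∆ MSCs. In WT MSCs they differed by -0.26 (adjusted p = 0.517) and -0.05 (adjusted p = 0.909). The muscle LIM gene Fhl1 passed in WT MSCs (-0.43, adjusted p = 0.0298) and not in p38α∆ MSCs (-0.25, adjusted p = 0.382). Of 12 measured Wnt and β-catenin targets none passed in p38α∆ MSCs, and in WT MSCs the G1 cyclin Ccnd1 was lower (-0.44, adjusted p = 0.00687). In p38α∆ MSCs Ccnd1 differed by -0.22 (adjusted p = 0.343).

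Of 16 CCN receptors 14 were measured and 1 passed, the heparan sulfate proteoglycan Sdc4, with 0.85 in p38α∆ and 0.57 in WT MSCs (adjusted p = 2.65e-04 and 5.12e-04). Among 9 matrix and growth factor partners, Vegfa, the angiogenic factor that CCN2 binds, was higher with TGF-β (1.14, adjusted p = 0.00404 in p38α∆, and 0.72, adjusted p = 0.0114 in WT MSCs). Bmp4, another ligand that CCN2 binds, was lower (-1.65, adjusted p = 2.78e-04, and -1.17, adjusted p = 3.72e-04). Tgfb1 differed by 0.73 in p38α∆ MSCs (adjusted p = 0.107) and by 0.69 in WT MSCs (adjusted p = 0.0443), and passed in WT MSCs only. Of 10 CCN-cleaving proteases the collagenase Mmp13 alone passed, lower in both genotypes (-1.74, adjusted p = 0.00332, and -0.91, adjusted p = 0.0269).

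No gene of these lists passed between untreated p38α∆ and untreated WT MSCs. Between p38α∆ and WT MSCs under TGF-β, where 0.187% of all probesets passed, Foxf2 and Fos were past the threshold in the main fit. This comparison served to choose the family, and the lists were drawn up around the family. Their differences are therefore a description, and no p is given. Foxf2 averaged 8.07 ± 0.11 in p38α∆ and 7.52 ± 0.18 in WT MSCs (SD, n = 3 each), a difference of 0.54 ± 0.09 (SE). Fos averaged 6.40 ± 0.27 in p38α∆ and 5.22 ± 0.46 in WT MSCs (SD, n = 3 each), a difference of 1.22 ± 0.20 (SE). Neither was past the threshold in the fit without array number or with array number as fixed terms. Foxf2 was lost in 17 and Fos in 12 of 22 other settings.

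Several calls of the linked genes depended on the fit or on 1 array. Without array number in the fit, the calls of F3, Fos, Ajuba in p38α∆ MSCs, Fhl1, Wwtr1, Amot, Tgfb1, Ccnd1, Tead2 and, in WT MSCs, Mmp13 were lost. Leaving out 1 array at a time ended, for at least 1 array, those of F3, Fos, Egr1, Fhl1, Amot, Tgfb1 and Ccnd1, of Srf, Tead2 and Ajuba in p38α∆ MSCs, and of Vegfa and Mmp13 in WT MSCs. The calls of Skil, Ldlrad4, Smad7, Tgfbi, Gadd45b, Dock5, Sdc4 and Bmp4 were lost in none of the settings run.

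**Figure D5:**
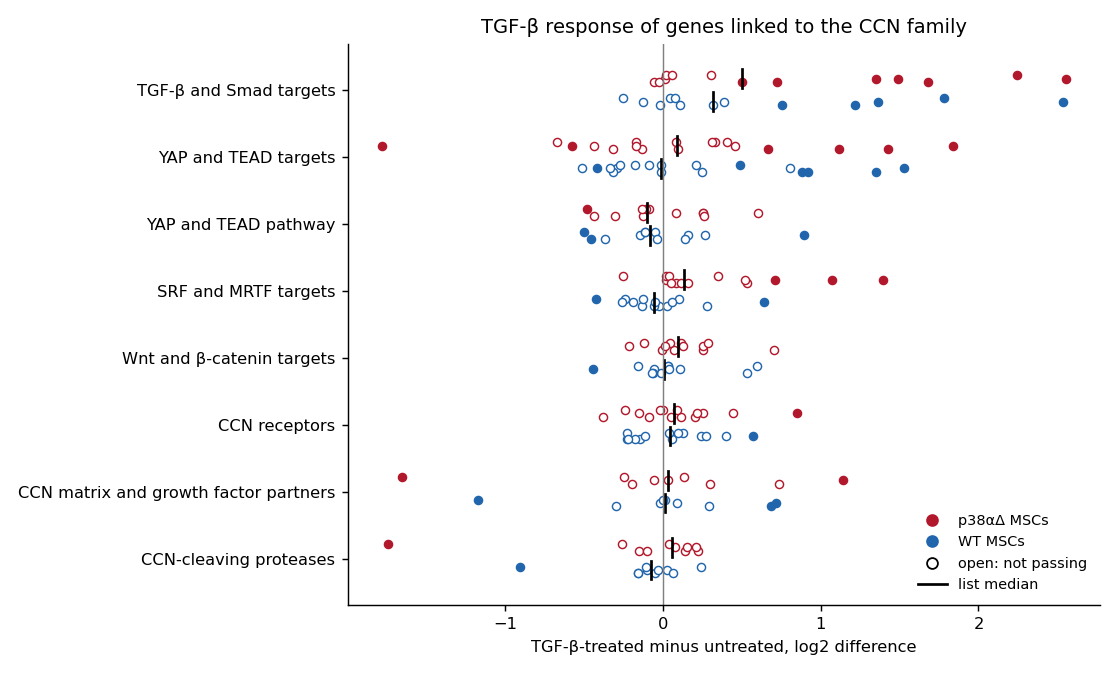
Fitted log2 difference, TGF-β-treated minus untreated, in p38α∆ and WT MSCs for every measured gene of the linked lists, 1 point per gene, filled where the adjusted p was under 0.05, with a bar at the list median. The TGF-β and Smad targets have the highest medians (0.50 and 0.32), Skil (2.56 and 2.53) lies furthest to the right and F3 (-1.78 in p38α∆ MSCs) furthest to the left.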

How the data were processed

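RNA of MSCs was amplified with a whole-transcriptome kit, labelled and hybridised to Affymetrix MG-430 PM arrays. The deposited values are log2 intensities per probeset, which the authors background-corrected, quantile-normalized and summarised with RMA in the R package affy; no raw signal was used here. The promoter of the Cre transgene is not reported here. Their scanning batches were not known here. From the table, 64 control probesets were left out and 45037 kept. Genes were named from GEO's platform annotation, which gave 28898 probesets 1 symbol, 551 several and 15588 none. The promoter came from RefSeq (GRCm38.p6), where 1 of 5 genes matched an entry.

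limma 3.58.1 (R 4.3.3; lmFit, eBayes) was run on all 12 arrays in 1 fit, two-sided, with array number (4b counted as 4) as a block by duplicateCorrelation (estimated correlation 0.46). The numbers were taken to pair the arrays because deviations from group means of same-numbered arrays in different groups correlated in all 14 pairs (r = 0.11 to 0.84), against -0.82 to 0.74 in 39 other pairs. These values do not settle the pairing, which remains an assumption. Pairs of number 4 reached 0.39 at most, while treated p38α∆ array 2 and treated WT array 3 had 0.74. The 2 untreated p38α∆ arrays have mirrored deviations, which fixes some signs. With the arrays numbered 1 left out, the estimated correlation was 0.11. Each gene was named by rule: all members, the 3 genes most like each member, and per list and comparison up to 4 passing genes with the largest difference. Members, lists and tests were chosen with earlier results of these data known. Alternatives covered the block, array number 1, probeset choice, dim probesets, normalization, variance model and each array left out.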

Additional observations from a re-analysis of the deposited data

Results flagged for a closer look

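In untreated WT MSCs, the only group large enough to examine for single distant arrays (n = 4), 3 values stood apart among the 8 CCN probesets. Chance does so in about 1 in 20 groups, and the share over all probesets is not given here. The gap to the nearest array, as a share of the group's range, was above 0.829. For Ccn4 it was array 1, at 7.68 on the brighter probeset (0.849 of the range) and at 6.28 on the other (0.898). Both Ccn4 values are of 1 array and of probesets that move together (r = 0.988), so they are not separate events. The arrays numbered 1 also stood apart in the principal components. For Ccn5 it was array 4b, at 7.21 (0.861). Without WT array 1 the Ccn4 responses in WT MSCs were still past the threshold, and so was the Ccn5 response without WT array 4b.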

How the results depend on the processing

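Across 21 other settings, 4 to 7 CCN probesets passed with TGF-β in p38α∆ MSCs (main value 7), 4 to 6 in WT MSCs (5) and 0 between untreated genotypes (lowest adjusted p of a member 0.153). With 1 probeset per gene, the most variable, 4 of 5 passed in p38α∆ MSCs. Leaving out 1 array at a time gave 5 to 7, 4 to 6 and 0. Without the replicate block 7, 4 and 0 passed, and with array number as fixed terms 6, 4 and 0, the brighter Ccn3 probeset being the one lost in each case. Both TGF-β responses of Ccn1, Ccn2, Ccn4 and Ccn5 kept their direction in every setting. The signs of 2 probesets turned where none passed, and the cause was not tested. For the dimmer Ccn3 probeset, the p38α∆ response was 0.18 without TGF-β-treated p38α∆ array 1 and 0.13 without untreated p38α∆ array 3, and the untreated genotype difference was 0.19 with arrays numbered 1 left out, 0.057 without WT array 1 and 0.030 without p38α∆ array 1. With 1 array left out at a time these ran from -0.22 to 0.18 and from -0.32 to 0.057. For the dimmer Ccn4 probeset, the untreated genotype difference was -0.055 without the replicate block, -0.19 without WT array 1 and -0.20 without p38α∆ array 3 (range with 1 array left out -0.20 to 0.29). Over all probesets, the fit without the block passed 1058 in p38α∆ MSCs, against 2347 with it, and 994 in WT MSCs, against 2704. Among the linked genes and lists, 1425 results were unchanged in call, 175 weakened, 20 strengthened and none turned.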

Other observations

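Ccn6 (1444050_PM_at), the remaining member of the wider family, was outside the chosen set and its values were read after those of the others. It lay between 3.06 and 3.28 on all 12 arrays, below the median probeset. Its TGF-β response was -0.07 in p38α∆ (adjusted p = 0.746) and 0.11 in WT MSCs (adjusted p = 0.383).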
